A study of Mus musculus with 18 samples.

Results

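Gluconeogenesis and glycogen genes make, export, store or release glucose in the liver. A set of 10 genes was followed here in livers of lean and obese mice with and without methotrexate: Pck1, G6pc, Fbp1, Pcx, Slc2a2, Slc37a4, Gys2, Pygl, Ppargc1a and Tat. Of these, Ppargc1a is a coactivator of such genes, and Tat is an aminotransferase that starts tyrosine breakdown. All 10 were chosen by name, as all probes of these genes on the array, with earlier results of these data known. They hold 12 probes and are 10 of the 21153 genes that the array's probes name, or of 19598 with a probe bright enough to test. All 10 passed that filter, and each gene's brightest probe lay well above background on all 18 arrays.

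The study asked how a high fat diet and chemotherapy change the liver, and the RNA of 18 livers was hybridised on 18 single-colour arrays, 1 per mouse. All mice were C57BL/6 males that entered their diet at 6 weeks of age. The LFD group (n = 4) ate a diet with 10% of its energy as fat and the HFD group (n = 4) a diet with 60%, both without drug. The LFD MTX50 group (n = 5) and the HFD MTX50 group (n = 5) ate the same diets and, from 10 weeks on, received methotrexate, an antifolate that blocks nucleotide synthesis, at 50 mg/kg into the peritoneum in 5 weekly doses. Livers were taken 1 week after the last dose. Below, lean names mice on the 10% diet and obese those on the 60% diet, whatever their weight at harvest. The paper reports that this treatment brought the body weight of HFD-fed mice down to that of untreated LFD mice. It also reports that body weight differed between LFD and LFD MTX50 mice, and that chemotherapy reduced epididymal fat in LFD mice. Drug and loss of weight or fat therefore cannot be told apart in the livers of either treated group. Food was freely available by the methods, and neither a fast nor the hour of killing is given for these livers, although the RNA of several of these genes changes with feeding and with the time of day.

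The level of a gene is the log2 intensity of its probe minus the 75th percentile of that array, so that a level of 0 is the brightness of the array's upper quartile. A difference between groups is a difference of such levels, given with its standard error from limma, and it is called where the p adjusted over all probes lies below 0.05. The arrays lay on 6 slides. The 4 LFD mice filled 1 slide and the 5 LFD MTX50 mice lay apart on others, so for every difference from LFD or LFD MTX50 the slide and the group cannot be told apart. A further slide carried both HFD mice 3 and 4 and their treated counterparts HFD MTX50 mice 1 and 2, which gives a value within a slide for HFD MTX50 vs HFD alone. With slide as a random block (correlation 0.262), 0 of the 10 genes were called in HFD vs LFD, LFD MTX50 vs LFD and HFD MTX50 vs LFD MTX50, and 2 in HFD MTX50 vs HFD. Those 2 were Fbp1 and Ppargc1a, and the call of G6pc was lost. The random block left 0 of 4 calls in HFD MTX50 vs LFD and 2 of 3, Slc37a4 and Ppargc1a, in HFD vs LFD MTX50. The liver label was borne out by 7 of 7 hepatocyte markers, which lay well above background on every array, with a mean level between 5.92 and 6.77. In whole tissue, fewer cells of a type and less RNA per cell cannot be told apart.

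Gluconeogenesis turns lactate, glycerol and amino acids into glucose when food does not supply it. Pyruvate carboxylase (Pcx) and phosphoenolpyruvate carboxykinase (Pck1) lead carbon past the pyruvate kinase step, fructose bisphosphatase (Fbp1) past phosphofructokinase, and the glucose-6-phosphatase subunit G6pc, fed by the transporter Slc37a4, frees glucose in the endoplasmic reticulum. Glycogen synthase (Gys2) and phosphorylase (Pygl) fill and empty the liver's glycogen. Fasting signals through glucagon, cAMP and glucocorticoids raise Pck1, G6pc, Tat and the coactivator Ppargc1a, and insulin lowers them.

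The promoters of Pck1, G6pc and Ppargc1a are shown because these genes had the largest called differences among the 10. The sequences are those of RefSeq on GRCm38.p6, 250 bases before to 50 after the annotated start site, written 5′ to 3′ along the gene. Such a window was found for 9 of the 10 genes (12 windows), with none for Gys2. Capitals mark TTACGTCA in Pck1, the variant of the cAMP response element known from this gene, at −93 from the start site. In G6pc they mark TGTTTTG, the reverse strand of the insulin response motif CAAAACA, at −174, and TATAAA at −29. In Ppargc1a they mark CGTCA, the reverse strand of the cAMP response core TGACG, at −49.
Pck1, chr2:173152823-173153122, plus strand: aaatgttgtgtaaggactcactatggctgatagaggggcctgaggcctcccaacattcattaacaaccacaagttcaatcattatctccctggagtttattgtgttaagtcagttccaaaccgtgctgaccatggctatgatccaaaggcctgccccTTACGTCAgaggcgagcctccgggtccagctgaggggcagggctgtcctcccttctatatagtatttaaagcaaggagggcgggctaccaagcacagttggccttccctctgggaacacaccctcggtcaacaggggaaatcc
G6pc, chr11:101367466-101367765, plus strand: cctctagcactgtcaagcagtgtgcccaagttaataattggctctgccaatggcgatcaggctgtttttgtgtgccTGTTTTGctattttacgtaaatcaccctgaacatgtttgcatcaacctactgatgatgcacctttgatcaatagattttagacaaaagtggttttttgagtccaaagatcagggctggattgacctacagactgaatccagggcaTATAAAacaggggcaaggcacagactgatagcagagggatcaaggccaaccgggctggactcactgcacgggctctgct
Ppargc1a, chr5:51567676-51567975, minus strand: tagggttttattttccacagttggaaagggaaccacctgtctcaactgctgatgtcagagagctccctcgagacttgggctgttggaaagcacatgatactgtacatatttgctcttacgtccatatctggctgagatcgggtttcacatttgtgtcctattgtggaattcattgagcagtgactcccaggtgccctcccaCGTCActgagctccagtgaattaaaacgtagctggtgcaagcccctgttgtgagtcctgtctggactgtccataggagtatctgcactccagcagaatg

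Searched on both strands, TTACGTCA stood in 0.499% of all 32851 promoter windows and in 1 of the 9 genes, Pck1. CAAAACA stood in 6.28% of windows and in 1 of the 9, G6pc. TATAAA stood in 13.6% of windows and in 2 of the 9, G6pc and 1 of the windows of Slc37a4. The short TGACG stood in 20.8% of windows and in 4 of the 9 genes, Pck1, Slc37a4, Pygl and Ppargc1a; in Pck1 it overlaps the TTACGTCA match. The full palindrome TGACGTCA (1.79% of windows), the forkhead motif GTAAACA (3.65%) and the glucocorticoid receptor motif AGAACA (19%) stood in 0 of the 9. These matches describe letters in a 300-base window and show no binding.

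In HFD livers 2 of the 10 genes were lower than in LFD livers and 0 higher: the coactivator Ppargc1a and the phosphorylase Pygl. Of all genes tested, 28.3% were called in this comparison (18% higher, 10.4% lower), so 2 of 10 is no larger a share than that of genes at large. The members' median difference was −0.30 on the log2 scale against 0.08 over all genes, with 9 of 10 below 0, although Fbp1, Pcx and Gys2 changed sign under other settings. In LFD MTX50 vs LFD, Pck1 was higher and G6pc lower, 2 of 10 where 28.1% of all genes were called (17.6% higher, 10.5% lower), with a median of −0.15 against 0.11. In HFD MTX50 vs HFD, G6pc and Fbp1 were lower and Ppargc1a higher, 3 of 10 where 11% of all genes were called (4.83% higher, 6.13% lower), with a median of −0.13 against −0.04. Higher calls made up 63.4%, 62.7% and 44% of all calls in these 3 comparisons, and 47.4%, 45.3% and 44.5% under quantile normalization, so the direction of the genes at large rests on the scaling.

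**Figure D1:**
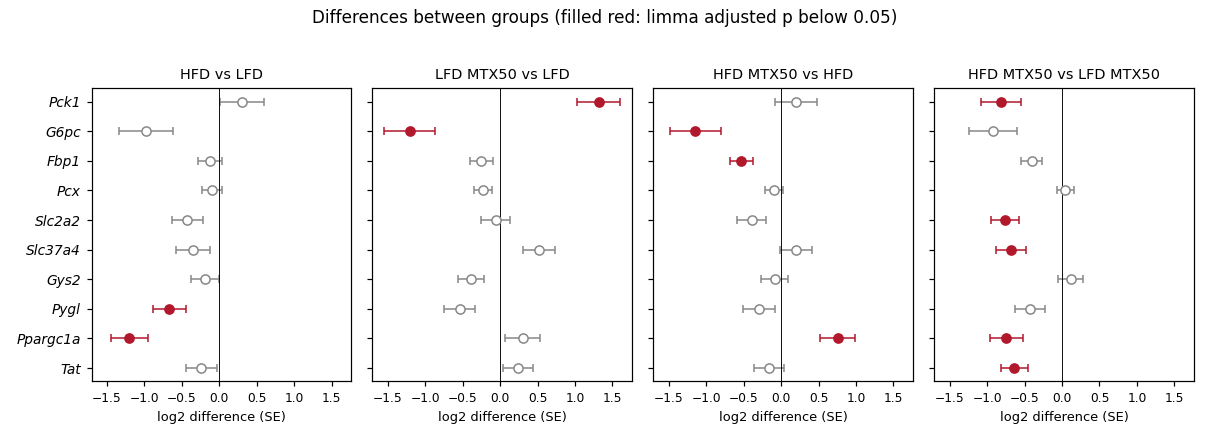
Log2 differences (horizontal axis, bars are the standard error) of the 10 genes in 4 comparisons; filled red points passed limma's adjusted p below 0.05 and open grey points did not. Pck1 lay at 1.31 and G6pc at −1.21 in LFD MTX50 vs LFD. In HFD MTX50 vs LFD MTX50, 5 of the 10 genes were called lower, where 8.75% of all genes were.

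Between the treated groups, 5 of 10 genes were called lower in HFD MTX50 than in LFD MTX50 and 0 higher, where 16.1% of all genes were called (7.37% higher, 8.75% lower). These were Pck1, Slc2a2, Slc37a4, Ppargc1a and Tat. With only the mice of these 2 groups fitted, or with slide as a random block, 0 of the 10 were called. Against untreated lean mice, HFD MTX50 livers were lower in 4 of 10 genes (G6pc, Fbp1, Slc2a2 and Pygl), where 6.85% of all genes were called (3.81% higher, 3.04% lower). With LFD and HFD MTX50 alone fitted, 2 of these were called. HFD livers were lower than LFD MTX50 livers in 3 of 10 (Pck1, Slc37a4 and Ppargc1a), where 22.4% of all genes were called (9.96% higher, 12.4% lower). Without LFD mice 2 or 4 the call of Fbp1 against LFD was lost, without LFD mice 2, 3 or 4 or HFD MTX50 mouse 2 that of Slc2a2, and without HFD mouse 4 that of Pck1 in HFD vs LFD MTX50. The comparisons share groups, so their counts are not independent. Pcx and Gys2 were called in none of these 6 comparisons, nor in the difference between the treatment effects.

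Pck1, which makes phosphoenolpyruvate from oxaloacetate, read 4.58, 4.34, 4.57 and 4.55 in LFD mice 1 to 4. In LFD MTX50 mice 1 to 5 it read 5.87, 5.33, 6.41, 5.30 and 6.21. All 5 treated lean mice thus lay above all 4 untreated ones. The difference was 1.31 ± 0.28 (2.49-fold, adjusted p 0.00528, exact permutation p 0.0079, the smallest that 4 against 5 mice can give). It stood at 1.17 to 1.45 with any 1 array left out and was called each time, and slide as a random block took its adjusted p to 0.0781.

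In obese mice Pck1 was not called in the main fit. HFD mice 1 to 4 read 5.02, 4.80, 4.80 and 4.64, all above the LFD mice. The difference was 0.31 ± 0.30 (adjusted p 0.448, exact permutation p 0.029), and it was called in 1 of 14 other settings, with only these 2 groups fitted. The standard error draws on all 4 groups, and the SD of Pck1 was 0.11 in LFD and 0.15 in HFD against 0.50 in LFD MTX50 and 0.66 in HFD MTX50. HFD MTX50 mice 1 to 5 read 4.54, 5.86, 4.91, 4.27 and 5.50, and so lay on both sides of the untreated obese mice. The difference was 0.20 ± 0.28 (95% interval −0.40 to 0.80, adjusted p 0.661), and 0.48 on the shared slide. The treatment effect in obese mice was smaller than that in lean mice by 1.12 ± 0.40 (adjusted p 0.0477), the 1 gene of 10 called in this test, where 26.8% of all genes were (8.66% higher, 18.1% lower). That call sat at the threshold: it was kept in 6 of 11 other settings and in 4 of 18 fits with an array left out, those without LFD MTX50 mice 2 or 4 or HFD MTX50 mice 2 or 5, over adjusted p from 0.0134 to 0.0862 in the latter.

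G6pc, the catalytic subunit that frees glucose from glucose-6-phosphate, moved the other way. It read 3.87, 3.42, 4.14 and 4.32 in LFD mice and 1.92, 3.02, 2.69, 3.80 and 2.22 in LFD MTX50 mice. LFD MTX50 mouse 4 lay among the untreated lean mice and the other 4 below them. The difference was −1.21 ± 0.34 (2.31-fold lower, adjusted p 0.0176, exact permutation p 0.032), called with any 1 array left out (−1.47 to −1.004).

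HFD mice read 2.81, 2.77, 3.63 and 2.62 for G6pc, of which only mouse 3 reached into the LFD range. HFD vs LFD was −0.98 ± 0.36 and missed the call narrowly (adjusted p 0.0509), and it passed in 7 of 14 other settings and in 5 of 18 fits with an array left out. HFD MTX50 mice read 2.15, 1.37, 1.75, 1.33 and 2.47, all below the untreated obese mice. The difference was −1.15 ± 0.34 (2.21-fold lower, adjusted p 0.0412, exact permutation p 0.016). On the slide that held both groups, with 2 mice of each, it was −1.37. It was called in 8 of 15 other settings and in 9 of 18 fits with an array left out. Slide as a random block and slide as a fixed block were both among the settings that lost the call. The calls were lost without LFD mice 1 or 3, LFD MTX50 mouse 2, HFD mice 2, 3 or 4, or HFD MTX50 mice 2, 3 or 4 (differences of −1.31 to −0.92 and adjusted p up to 0.158 over the 18 fits). The treatment effects on the 2 diets differed by 0.06 ± 0.48 (95% interval −0.96 to 1.08), so a difference of up to about the size of either effect was not resolved. HFD MTX50 vs LFD was −2.12 ± 0.34 (4.35-fold lower, adjusted p 0.00407), with no overlap.

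**Figure D2:**
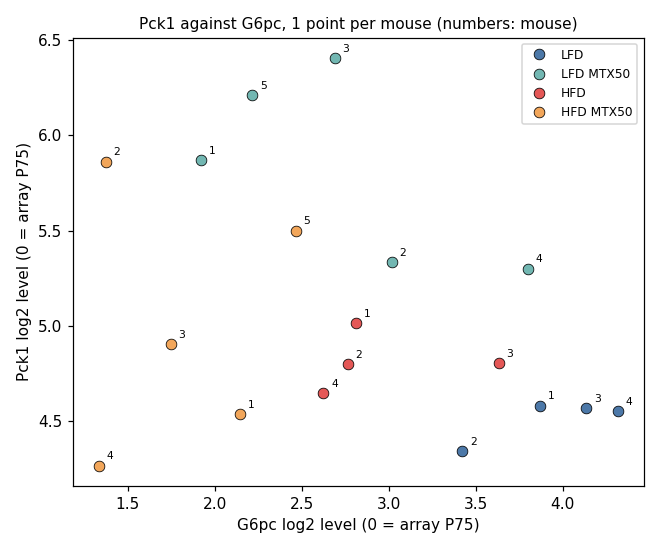
Pck1 level (vertical axis) against G6pc level (horizontal axis), both as log2 intensity above the 75th percentile of the array, with 1 point per mouse, coloured by group and numbered by mouse. LFD mice lie at the lower right, with Pck1 from 4.34 to 4.58 and G6pc from 3.42 to 4.32, and LFD MTX50 mice lie above them, with Pck1 from 5.30 to 6.41.

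Fbp1, the bisphosphatase of the pathway, spanned a narrow range in 3 groups: 6.44 to 6.60 in LFD, 6.19 to 6.40 in LFD MTX50 and 6.29 to 6.47 in HFD. HFD MTX50 mice read 5.78, 5.38, 5.60, 6.21 and 6.35, with mouse 5 inside the range of untreated obese mice and the other 4 below it. HFD MTX50 vs HFD was −0.53 ± 0.15 (1.45-fold lower, adjusted p 0.0366, exact permutation p 0.056). On the slide that held both groups it was −0.87. With slide as a random block the call was kept, and with slide as a fixed block it was lost. The call was lost without HFD mice 2, 3 or 4 or HFD MTX50 mice 2 or 3 (adjusted p up to 0.111 and differences of −0.66 to −0.41 over the 18 fits). In lean mice all 5 treated animals lay below all 4 untreated ones, yet the difference of −0.25 ± 0.15 missed the call (adjusted p 0.215, exact permutation p 0.016). HFD vs LFD was −0.13 ± 0.16 (adjusted p 0.571).

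Pcx, which makes oxaloacetate from pyruvate in mitochondria, read between 3.90 and 4.54 over all 18 mice. Its differences were −0.09 ± 0.13 for HFD vs LFD, −0.23 ± 0.12 for LFD MTX50 vs LFD and −0.09 ± 0.12 for HFD MTX50 vs HFD. The 95% intervals of the 3 ran from −0.49 at the lowest to 0.18 at the highest. Pcx was not tested against Pck1 or G6pc.

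Slc37a4, the transporter that carries glucose-6-phosphate to G6pc, read 4.03, 4.44, 3.85 and 4.17 in LFD and 4.95, 4.46, 4.22, 4.31 and 5.30 in LFD MTX50. Each treated lean mouse but 2 exceeded the untreated ones, and the difference of 0.52 ± 0.22 missed the call (adjusted p 0.0752), passing under quantile normalization alone among 14 other settings. HFD mice read 3.64 to 4.05 and HFD MTX50 mice 3.67 to 4.37 (difference 0.20 ± 0.22, adjusted p 0.553). HFD MTX50 vs LFD MTX50 was −0.68 ± 0.20 (adjusted p 0.0331). That call was lost without LFD MTX50 mice 1 or 5 or HFD MTX50 mice 3 or 4 (adjusted p up to 0.0832).

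Slc2a2, the low-affinity glucose transporter of the hepatocyte membrane, read 4.36 to 4.59 in LFD. In LFD MTX50, 4 mice read 4.53 to 4.58 and mouse 3 read 3.82. HFD mice read 3.81 to 4.19, all below the LFD mice. Their difference of −0.42 ± 0.21 missed the call (adjusted p 0.130, exact permutation p 0.029), and it was called in 3 of 14 other settings. HFD MTX50 mice read 3.41, 3.34, 4.07, 4.18 and 3.25, so that 3 lay below every other mouse of the study and 2 within the range of untreated obese mice. The difference was −0.39 ± 0.20 (adjusted p 0.184), and −0.54 on the shared slide. HFD MTX50 vs LFD MTX50 was −0.76 ± 0.19 (1.69-fold lower, adjusted p 0.0163), called with any 1 array left out.

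Gys2, the liver form of glycogen synthase, read 4.00, 4.24, 3.95 and 3.87 in LFD and 3.71, 3.59, 3.42, 3.76 and 3.65 in LFD MTX50. All treated lean mice lay below all untreated ones, and the difference of −0.39 ± 0.18 missed the call (adjusted p 0.105, exact permutation p 0.0079). The gene's dimmer probe, at 1.12 in LFD and 1.30 in LFD MTX50, differed by 0.18 (adjusted p 0.475) and so did not repeat that order. HFD mice read 3.53 to 4.08 and HFD MTX50 mice 3.41 to 4.37, with a difference of −0.09 ± 0.18.

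Pygl, the liver phosphorylase that opens glycogen breakdown, read 5.87, 5.75, 5.84 and 5.93 in LFD and 5.18, 5.37, 5.09 and 5.08 in HFD. The groups did not overlap, and the difference was −0.67 ± 0.22 (1.59-fold lower, adjusted p 0.0339, exact permutation p 0.029, the smallest that 4 against 4 mice can give). The call was lost under quantile normalization (−0.41, adjusted p 0.211) and without any LFD mouse or HFD mice 3 or 4, over differences of −0.73 to −0.63 and adjusted p up to 0.0905. LFD MTX50 mice read 5.09, 5.50, 4.79, 5.87 and 5.29, and the difference from LFD of −0.54 ± 0.21 missed the call (adjusted p 0.0609). HFD MTX50 mice read 4.92, 4.26, 4.69, 5.17 and 5.38 (difference from HFD −0.30 ± 0.21, adjusted p 0.340). HFD MTX50 vs LFD was −0.96 ± 0.21 (adjusted p 0.0156), with no overlap.

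Ppargc1a, the coactivator that joins fasting signals to gluconeogenic and mitochondrial genes, read −0.79, −0.98, −0.67 and −0.80 in LFD and −1.98, −1.81, −1.96 and −2.28 in HFD. The difference was −1.20 ± 0.25 (2.29-fold lower, adjusted p 0.00528, exact permutation p 0.029), and no HFD mouse reached the LFD range. The call was kept with any 1 array left out. The dimmer probe of the gene gave −0.97 (adjusted p 0.0151). With slide as a random block the adjusted p of the brighter probe was 0.0512.

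HFD MTX50 mice read −1.52, −0.54, −1.59, −1.43 and −1.18 for Ppargc1a, all above the untreated obese mice, and mouse 2 lay above the LFD mice too. The difference was 0.76 ± 0.24 (1.69-fold higher, adjusted p 0.0482, exact permutation p 0.016). On the slide that held both groups it was 1.09. With slide as a random block the call was kept, and with slide as a fixed block it was lost. The call sat at the threshold. It was kept in 7 of 15 other settings and in 4 of 18 fits with an array left out, those without LFD MTX50 mice 4 or 5 or HFD MTX50 mice 1 or 3, over differences of 0.58 to 0.84 and adjusted p up to 0.151. The dimmer probe gave 0.43 (adjusted p 0.247). In lean mice, treatment left 4 animals between −0.98 and −0.54 and mouse 5 at 0.35 (difference 0.30 ± 0.24, adjusted p 0.336). HFD MTX50 vs LFD MTX50 was −0.74 ± 0.22 (adjusted p 0.0331), lost without LFD MTX50 mice 2 or 3 or HFD MTX50 mice 1, 3 or 4 (adjusted p up to 0.0794). HFD vs LFD MTX50 was the largest difference of this gene at −1.50 ± 0.24 (2.83-fold lower, adjusted p 0.000471).

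Tat, the aminotransferase that starts tyrosine breakdown and a textbook target of glucocorticoids, read 3.52 to 3.86 in LFD, 3.65 to 4.46 in LFD MTX50, 3.28 to 3.65 in HFD and 2.84 to 3.76 in HFD MTX50. No difference from the untreated mice of either diet passed, at 0.24 ± 0.20 in lean (adjusted p 0.359) and −0.16 ± 0.20 in obese mice (adjusted p 0.601). HFD MTX50 vs LFD MTX50 was −0.64 ± 0.18 (1.55-fold lower, adjusted p 0.0298). That call was lost without LFD MTX50 mice 1, 3 or 5 or HFD MTX50 mice 3 or 4 (adjusted p up to 0.077).

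**Figure D3:**
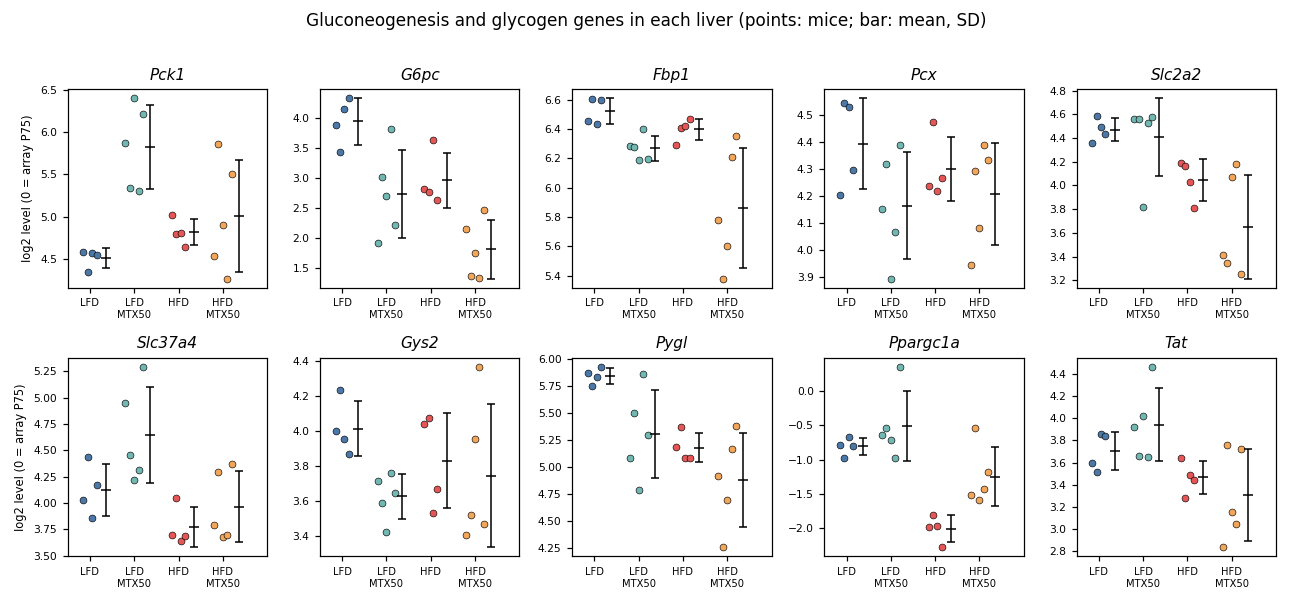
Level of each of the 10 genes (vertical axes, log2 intensity above the 75th percentile of the array) in each mouse, by group, with the group mean and SD as a black bar beside the points. Ppargc1a in HFD mice, at −2.28 to −1.81, lay below all other mice, and Pck1 in LFD MTX50 mice, at 5.30 to 6.41, lay above all LFD and HFD mice.

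Set in order of their means, the 4 groups gave each gene 3 neighbouring steps, 30 in all, of which 2 were called. For Pck1 the order from low to high was LFD, HFD, HFD MTX50 and LFD MTX50, and only the last step, of 0.81 ± 0.27, was called (adjusted p 0.0475), a call kept in 4 of 18 fits with an array left out, those without LFD MTX50 mice 2 or 4 or HFD MTX50 mice 2 or 5 (adjusted p up to 0.126). For Ppargc1a it was HFD, HFD MTX50, LFD and LFD MTX50, with only the first step called. G6pc rose from HFD MTX50 through LFD MTX50 and HFD to LFD in steps of 0.92, 0.23 and 0.98, none of them called, while its ends differed. The number of called steps ran from 0 to 4 under other settings, so the order of neighbouring groups is not settled, at the ends of a series or in its middle. The share of such steps called over all genes was not computed.

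The SD between mice was larger in both treated groups than in both untreated groups for 8 of the 10, all but Fbp1 and Gys2. The share of all genes with this order was not computed, so it is not shown to be particular to these genes. Over all kept probes, arrays correlated with their own group at 0.9861 to 0.9887 in LFD and 0.9823 to 0.9886 in LFD MTX50. The range was 0.9901 to 0.9927 in HFD and 0.9787 to 0.9835 in HFD MTX50. The SD of Pck1 was 0.11 in LFD and 0.15 in HFD against 0.50 in LFD MTX50 and 0.66 in HFD MTX50. Pygl had SDs of 0.07 and 0.13 without drug and 0.41 and 0.43 with it. Fbp1 kept an SD of 0.09 in LFD MTX50 and reached 0.41 in HFD MTX50. The main fit nevertheless shares 1 estimate of a gene's spread over the 4 groups. The spreads were not tested against each other. HFD MTX50 mice did not hold 1 rank over the genes: mouse 2 had the group's highest Pck1 and Ppargc1a and its lowest Fbp1 and Pygl, and mouse 4 the lowest Pck1 and G6pc and the highest Gys2 and Slc2a2.

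Other genes of glucose production and of the malate, glycerol and pyruvate routes into it (28 listed, 28 tested) were called in 5 cases for HFD vs LFD, 2 higher and 3 lower, where 28.3% of all genes were called. With slide as a random block the list had 0 calls there, 1 in LFD MTX50 vs LFD (Eno1) and 4 in HFD MTX50 vs HFD. The list's median difference was −0.12 against 0.08 over all genes. Gpi1, the isomerase between fructose and glucose phosphates, was lower by −1.07 ± 0.24 (adjusted p 0.00711), and Slc25a10, the mitochondrial dicarboxylate carrier, higher by 0.89 ± 0.22 (adjusted p 0.0106). In LFD MTX50 vs LFD 1 gene was higher and 5 lower (median −0.07 against 0.11), where 28.1% of all genes were called. Among them were Gpd1, which makes or uses glycerol-3-phosphate in the cytosol, at −0.99 ± 0.19 (adjusted p 0.00349), and the enolase Eno1 at −0.72 ± 0.11 (adjusted p 0.00129). Pdk4, a kinase that shuts pyruvate dehydrogenase in fasting, was at −1.28 ± 0.44 (adjusted p 0.0387), a call lost without LFD mice 1, 3 or 4 or LFD MTX50 mice 1, 3, 4 or 5. In HFD MTX50 vs HFD 1 gene was higher and 3 lower (median −0.15 against −0.04), where 11% of all genes were called. Slc25a10 fell by 1.43 ± 0.21 (adjusted p 0.005), to below the untreated lean mice in 4 of 5 animals, and Gpd1 by 0.81 ± 0.19 (adjusted p 0.0194), the latter lost without HFD mice 3 or 4. The effects of treatment on Slc25a10 differed between the diets by −1.30 ± 0.30 (adjusted p 0.00839).

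Glycogen genes beyond the members (27 listed and tested) had 3 called higher and 4 lower for diet in untreated mice (HFD vs LFD), 2 and 4 for treatment in lean mice (LFD MTX50 vs LFD), and 2 and 3 for treatment in obese mice (HFD MTX50 vs HFD). Of all genes, 28.3%, 28.1% and 11% were called in the 3 comparisons. The list had 0, 0 and 5 calls with slide as a random block. Their medians were 0.04, −0.04 and −0.06. Ppp1r3c is a subunit that brings protein phosphatase to glycogen and favours its synthesis. It lay at 2.27 to 3.16 in LFD, −0.08 to 1.82 in LFD MTX50, 0.25 to 1.48 in HFD and 0.13 to 1.36 in HFD MTX50, so that the LFD mice stood above all others. HFD vs LFD was −1.88 ± 0.37 (adjusted p 0.00455) and LFD MTX50 vs LFD −1.91 ± 0.35 (adjusted p 0.0027), both called with any 1 array left out. The treatment effects on the 2 diets differed by 1.85 ± 0.50 (adjusted p 0.0154). None of these 3 differences of Ppp1r3c was called with a random slide block (adjusted p 0.054, 0.0665 and 0.0805). Ppp1r3b, the main subunit of this kind in liver, was lower in HFD vs LFD by −0.75 ± 0.22 (adjusted p 0.0221), and Ppp1r3g lower in HFD MTX50 vs HFD by −2.51 ± 0.68 (adjusted p 0.0299). These calls were lost in fits without LFD mice 1 or 2 or HFD mice 3 or 4, and without HFD mice 2, 3 or 4 or HFD MTX50 mouse 5, respectively. Ppp1r3g was dim, at −3.19 to −1.98 in HFD and −7.09 to −3.54 in HFD MTX50 and well above background on 17 of 18 arrays, and its difference was −1.38 with normexp background. That of Ppp1r3b was −0.47 with quantile normalization. The branching enzyme Gbe1 fell with treatment in obese mice (−0.73 ± 0.17, adjusted p 0.02), a call lost without HFD mice 2, 3 or 4. The muscle forms of synthase and phosphorylase, Gys1 and Pygm, were higher in HFD vs LFD (0.64 ± 0.14, or 0.42 over the mean of the gene's probes, and 1.09 ± 0.30, the second lost without HFD mice 3 or 4), and their treatment effects differed between the diets by −0.79 ± 0.19 and −1.95 ± 0.40 (adjusted p 0.0102 and 0.0064).

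Genes that take up glucose, fructose and galactose or lead them into glycolysis (20 listed, 19 tested) had 3 called higher and 3 lower for HFD vs LFD, 2 and 3 for LFD MTX50 vs LFD, and 1 and 4 in HFD MTX50 vs HFD. Of all genes, 28.3%, 28.1% and 11% were called in these 3 comparisons. The random slide block gave the list 0, 0 and 4 calls. The medians were −0.08, 0.15 and −0.21. Khk, the fructokinase, was lower in each of these comparisons, by −0.64 ± 0.21 (adjusted p 0.033), −0.79 ± 0.20 (0.0106) and −0.68 ± 0.20 (0.0381). The first was lost without any of the LFD mice or HFD mice 3 or 4 and was −0.38 with quantile normalization, and the last without HFD mice 2, 3 or 4 or HFD MTX50 mice 1, 2 or 3. Pklr, the pyruvate kinase of liver and red cells, was lower in treated than in untreated obese mice (−0.95 ± 0.27, adjusted p 0.0341, and −1.52 with slide as a fixed block, where it was not called), a call lost without HFD mice 2, 3 or 4 or HFD MTX50 mice 2 or 5. Hk1, a hexokinase that red cells also make, fell in LFD MTX50 vs LFD by 2.04 ± 0.52 (adjusted p 0.0114), and its treatment effects differed between the diets by 2.92 ± 0.74 (adjusted p 0.0121). Over the mean of the gene's probes these were −0.86 and 1.04, and with slide as a random block neither was called (adjusted p 0.119 and 0.0809). The mean level of 3 erythroid markers was 1.12 to 1.43 in LFD, 0.96 to 1.51 in HFD, −1.73 to −0.98 in LFD MTX50 and −1.20 to 2.38 in HFD MTX50. Between the lean groups it fell with Hk1. In HFD MTX50 mice 1 to 3 it lay below all HFD mice, while Hk1 read 2.15, 3.33 and 4.51 there against 1.66 to 3.72 in HFD. In HFD MTX50 mice 4 and 5 both lay above all HFD mice. The part of the erythroid markers' cells in the Hk1 result was not tested.

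Regulators that act on gluconeogenic promoters (35 listed and tested) had 3 called higher and 5 lower for HFD vs LFD (median −0.21), 6 and 5 for LFD MTX50 vs LFD (0.08), and 3 and 0 in HFD MTX50 vs HFD (0.20). Of all genes, 28.3%, 28.1% and 11% were called in the 3 comparisons. With slide as a random block the list had 1, 1 and 4 calls, the first Cry1 and the second Foxo3. Cry1, a clock protein that dampens the cAMP signal, fell in HFD vs LFD by 1.65 ± 0.33 (adjusted p 0.0046), a call kept in each of the other 12 settings, slide as a random block included. Sirt1, a deacetylase of Ppargc1a, was lower in HFD vs LFD (−0.61 ± 0.13, adjusted p 0.00527) and higher in HFD MTX50 vs HFD (0.51 ± 0.12, adjusted p 0.0187), the latter lost without HFD mice 3 or 4 and the former, at an adjusted p of 0.0594, with a random slide block. In LFD MTX50 vs LFD the forkhead factor Foxo3 rose by 0.94 ± 0.10 (adjusted p 0.00014) and Cebpb, lost without LFD mouse 4, by 1.04 ± 0.31 (adjusted p 0.0208), while Foxa1 fell by 0.93 ± 0.25 (adjusted p 0.0146). Neither Cebpb nor Foxa1 was called with slide as a random block (adjusted p 0.143 and 0.115). Foxo3 lay at −1.96 to −1.86 in LFD and −1.13 to −0.75 in LFD MTX50, and its treatment effects differed between the diets by −0.9999 ± 0.15 (adjusted p 0.00361), with both calls kept under each other setting, slide as a random block included. In HFD MTX50 vs HFD the acetyltransferase Ep300 rose by 0.56 ± 0.11 (adjusted p 0.0101) and Hnf4a, a nuclear receptor of hepatocytes, by 0.51 ± 0.15 (adjusted p 0.0381). The first was lost without HFD mouse 4 and the second without HFD mice 2, 3 or 4 or HFD MTX50 mice 2 or 5. With quantile normalization Hnf4a differed by 0.24 and was not called.

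**Figure D4:**
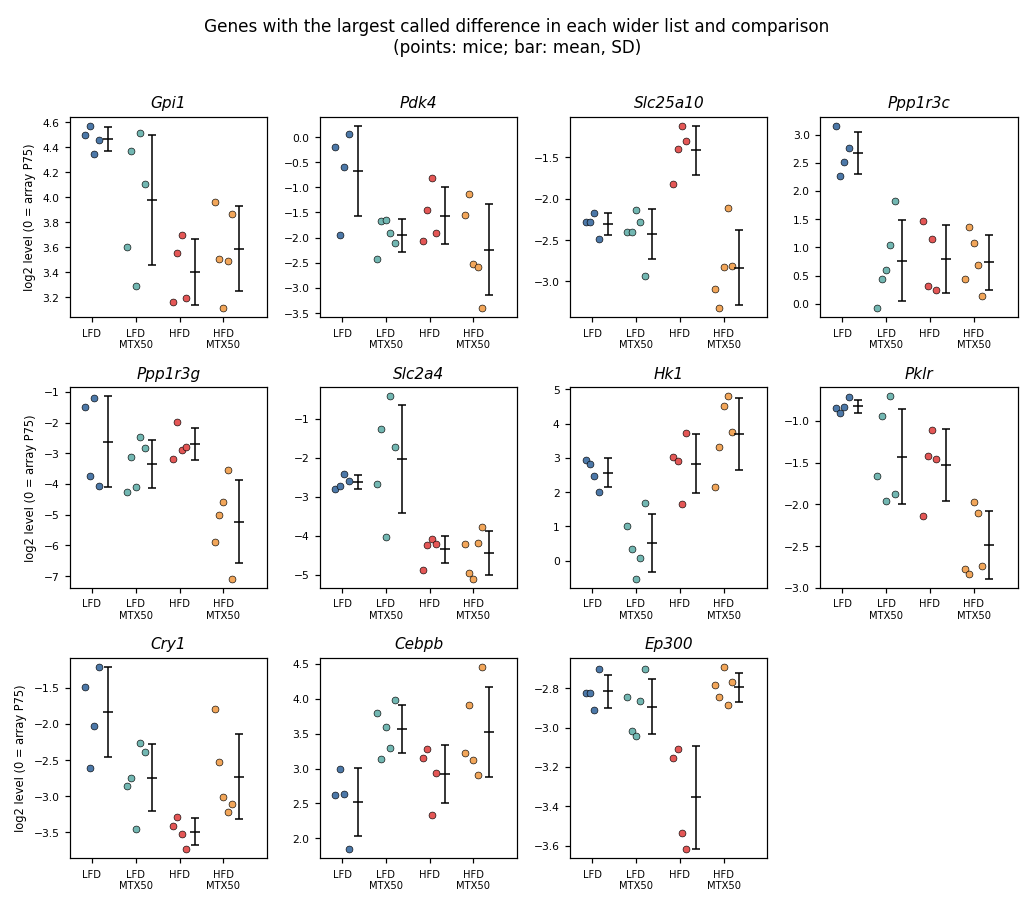
Levels (vertical axes, log2 intensity above the 75th percentile of the array) in each mouse of the genes with the largest called difference in each of 4 wider lists and 3 comparisons, with the group mean and SD as a black bar. Ppp1r3c was at 2.27 to 3.16 in LFD and at most 1.82 in the other groups, and Slc25a10 in HFD, at −1.82 to −1.12, lay above all other mice.

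Glucocorticoid-responsive genes (13 tested) had 0 called higher and 1 lower in HFD vs LFD (median −0.11), 4 and 0 in treated against untreated lean mice (0.30) and 2 and 0 in treated against untreated obese mice (0.54). Of all genes 28.3%, 28.1% and 11% were called, and with slide as a random block the list had 0, 1 and 1 calls. The mean level of the list was 1.44 to 1.56 in LFD, 1.77 to 2.85 in LFD MTX50, 1.32 to 1.45 in HFD and 1.61 to 2.79 in HFD MTX50. Mt2, a metallothionein also raised by metals and inflammation, rose by 5.15 ± 1.08 (adjusted p 0.00475) in lean and 4.95 ± 1.08 (adjusted p 0.0143) in obese mice, the latter lost without HFD mouse 4. Zbtb16 was called in lean mice (1.95 ± 0.33, adjusted p 0.00168), and its effects differed between the diets by −1.47 ± 0.46 (adjusted p 0.0292), lost without LFD mouse 3, LFD MTX50 mouse 3, HFD mice 3 or 4 or HFD MTX50 mouse 4. The other list members called were Sgk1, lower in HFD vs LFD (−1.15, adjusted p 0.0222), Klf9 in lean mice and Errfi1 in lean and obese mice. The call of Sgk1 was lost without LFD mice 1, 3 or 4 or HFD mouse 4. That of Errfi1 in obese mice was kept in 5 of 13 other settings and in 9 of 18 fits with an array left out. The part of these genes' shared signals in the changes of Pck1 was not tested.

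Clock genes (16 tested) had 3 higher and 3 lower for HFD vs LFD (median 0.22), 4 and 3 for LFD MTX50 vs LFD (0.04) and 0 in HFD MTX50 vs HFD (0.11). A random slide block gave 1, 0 and 0 calls. Of all genes, 28.3%, 28.1% and 11% were called in the 3 comparisons, to be set beside each list of this paragraph. Arntl was lower (−1.69 ± 0.49, adjusted p 0.0199) and Dbp higher (1.48 ± 0.53, adjusted p 0.0455) in HFD vs LFD, and Tef (1.49 ± 0.36, adjusted p 0.00839) and Ciart were higher in LFD MTX50 vs LFD. Ciart was dim in LFD mice, at −8.54 to −2.37 against −4.72 to −0.07, and well above background on 16 of 18 arrays, so its difference of 3.85 (adjusted p 0.0217) is no exact size. It was 1.80 and not called with normexp background. The calls of Arntl, Dbp and Ciart were lost without LFD mouse 4, among other arrays, and Dbp was kept in 9 of 18 such fits. LFD mouse 2 stood apart from the other LFD mice, with Dbp at 2.23 against −0.23 to 0.19. Its Arntl was −1.75 against −0.44 to −0.01. Both of its values lay within the range of the HFD mice. The hour at which each mouse was killed is not given, and the part of the hour in the members' differences was not tested. Genes of the periportal zone, where gluconeogenesis is strongest, had 0 higher and 2 lower of 10 for HFD vs LFD (median −0.41), 1 and 2 for LFD MTX50 vs LFD (0.08) and 1 and 1 in HFD MTX50 vs HFD (0.02). Cps1, the entry to the urea cycle, fell in HFD vs LFD by 1.24 ± 0.25 (adjusted p 0.00499). Pericentral genes had 0 called in HFD vs LFD, 3 lower in LFD MTX50 vs LFD and 1 lower in HFD MTX50 vs HFD (medians −0.03, −0.29 and −0.19). The random slide block gave 1, 0 and 2 calls for the periportal and 0, 1 and 1 for the pericentral genes. The 6 other genes listed with phenylalanine and tyrosine breakdown had 1 lower in HFD vs LFD, the cytokine Mif (−0.46 ± 0.14, adjusted p 0.0271). They had 0 called in LFD MTX50 vs LFD and 1 lower in HFD MTX50 vs HFD, the homogentisate oxidase Hgd (−0.74 ± 0.18, adjusted p 0.019). Mif was lost without LFD mice 2 or 4 or HFD mice 1 or 4, and Hgd without HFD mice 3 or 4. Mif differed by −0.26 with quantile normalization and Hgd by −1.21 with slide as a fixed block, neither of them called.

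Markers of other cells also differed between mice. The mean of 5 neutrophil markers ran from −0.91 to −0.55 in LFD, −1.03 to 1.01 in LFD MTX50, −0.94 to −0.17 in HFD and −0.75 to 3.66 in HFD MTX50, highest in HFD MTX50 mouse 5. That mouse had the highest Fbp1 and Pygl of its group. Hepatocyte markers had 0 called higher and 1 lower of 7 for HFD vs LFD, 1 and 0 for LFD MTX50 vs LFD and 0 in HFD MTX50 vs HFD. Their mean level was 6.40 to 6.58 in LFD, 6.46 to 6.77 in LFD MTX50, 5.92 to 6.28 in HFD and 5.95 to 6.48 in HFD MTX50, so HFD lay below LFD without overlap. Adipocyte markers, well above background on all arrays, had 2 of 3 called higher in HFD and 3 of 3 in LFD MTX50 against LFD, and 1 of 3 higher in treated obese mice. Their mean level was −4.40 to −4.22 in LFD, −3.84 to −3.17 in LFD MTX50, −3.79 to −3.06 in HFD and −3.87 to −3.21 in HFD MTX50. Markers of Kupffer cells and macrophages averaged 0.53 to 1.37, 0.70 to 1.41, 0.48 to 0.97 and 1.02 to 1.79 in the same order, with HFD MTX50 above HFD in every mouse, and had 0 of 7 called there. Kidney tubule markers had 2 of 3 called higher in HFD and 1 of 3 in LFD MTX50 against LFD, and 0 lower. T and B cell markers had 2 of 6 called higher in each, and 0 lower. Of all genes, 28.3% were called in HFD vs LFD (18% higher) and 28.1% in LFD MTX50 vs LFD (17.6% higher). The share was 11% in HFD MTX50 vs HFD (4.83% higher). The part of cell makeup in the members' differences was not tested.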

How the data were processed

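Liver RNA of 18 mice was hybridised on 18 Agilent 4×44K single-colour arrays. Extraction was by Trizol and RNeasy with the Low RNA Input kit per the labels, and by RNeasy with Quick Amp per the methods. The authors read spots with Agilent Feature Extraction 10.7.3.1, and the deposited values are its processed signal, a background-subtracted and detrended intensity on a linear scale, with arrays not scaled to each other. The series' own table holds rounded background-subtracted intensity of the same scans.

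From the log2 of the processed signal, the 75th percentile of the array's spots other than controls was subtracted (1203 to 2263 intensity units). Outlier spots (124 to 294 per array) were left out, and 0 spots were saturated. Probes well above background on at least 4 of 18 arrays were kept (35739, of which 347 lack some value). Arrays correlated with the others of their group at 0.979 to 0.993 on average. Accessions were named through RefSeq's GRCm38.p6 table, which gave a gene to 28025 of 39429 probes, and a gene was read on its brightest kept probe. Unnamed probes stayed in the fit.

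limma 3.58.1 in R 4.3.3 fitted 1 model with 4 groups (14 residual and 2.77 prior degrees of freedom), with p-values adjusted by Benjamini-Hochberg across every probe kept. Calls were made at adjusted p below 0.05 with no fold threshold. The methods state no array normalization, and their thresholds of fold and p were not used as the main call. Exact two-sided permutation tests of group means cannot go below 0.0079 for 4 against 5 mice and 0.029 for 4 against 4. By the methods each mouse was housed singly before treatment began, while litters are not given. The p-values measure the spread between these mice, and the number of arrays limits the precision. Named genes were all 10 members and, from each wider list and comparison, the called genes with the largest differences, at most 5. The members and lists were chosen with earlier results of these data known. The script was tested on simulated data.

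Alternatives were quantile normalization, normexp background (offset 50), scaling by the median of the probes detected on every array, the series' table, keeping outlier spots, other filters, an intensity trend, 2-group fits, a block for slide or for replicate number, averaging all probes of a gene, the methods' t-test, which they name for other measurements, and leaving out each array. For normexp, the median signal of each spot was used and spots over 100 units below their local background were left out of the fit, both chosen after seeing the data, as were all alternatives for HFD MTX50 vs LFD MTX50, HFD MTX50 vs LFD and HFD vs LFD MTX50, the order of groups and the wider lists.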

Additional observations from a re-analysis of the deposited data

Results flagged for a closer look

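In 3 of the 40 groups of values (10 genes in 4 groups), 1 mouse stood far from the others by Dixon's test, which chance gives in about 1 group in 20. LFD mouse 2 read 4.34 for Pck1 against 4.55 to 4.58 in the other LFD mice, a gap of 0.883 of the group's range. LFD MTX50 mouse 3 read 3.82 for Slc2a2, and its gap to the others was 0.937 of the range. HFD mouse 2 read 4.05 for Slc37a4, above 3.64 to 3.70 in the other HFD mice, with a gap of 0.859 of the range. The effect of methotrexate on Pck1 differed between the diets in the main fit, with the effect in obese mice minus that in lean mice at −1.12 (limma adjusted p 0.0477). That call was kept in 6 of 11 other settings and in 4 of 18 fits with an array left out.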

How the results depend on the processing

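In the 6 comparisons and the difference between treatment effects, no called difference of the 10 genes changed its sign under the alternatives run, and slide as a random or fixed block was the choice that ended most calls. Main counts of called members were 2 (HFD vs LFD), 2 (LFD MTX50 vs LFD), 3 (HFD MTX50 vs HFD), 5 (HFD MTX50 vs LFD MTX50) and 1 (difference between treatment effects), and 2 called steps in the order of groups. With slide as a random block they were 0, 0, 2, 0, 0 and 1, and with slide fixed HFD MTX50 vs HFD gave 0. With only the 2 groups fitted they were 5, 4, 0 and 0. The methods' t-test with Benjamini-Hochberg adjustment gave 4, 3, 0 and 0. In HFD MTX50 vs HFD it called 0 of all genes, as did the 2-group fit and the fixed slide, where limma with 4 groups called 2148 genes and had 6039 at an unadjusted p under 0.05, and the t-test had 2053 at p up to 0.015. At an unadjusted p up to 0.015 the t-test gave 0 for HFD MTX50 vs LFD MTX50. Normexp and the series' table each gave 1 in HFD MTX50 vs HFD and 0 for the difference between treatment effects, quantile normalization 1 in HFD vs LFD, and scaling to the median 0 for the difference between effects. Without a filter on dim probes that difference gave 0 and the steps 0. Only probes above background on all arrays gave 4 steps, and the mean of a gene's probes 1. Leaving out each array in turn gave 1 to 3, 2 to 3, 0 to 3, 1 to 7 and 0 to 1 called members, and 0 to 5 steps. In HFD MTX50 vs LFD, 4 called members became 2 with only the 2 groups fitted, 0 with slide as a random block, 1 with the adjusted t-test and 2 to 4 with an array left out. In HFD vs LFD MTX50, 3 called members became 2 with slide as a random block and 2 to 3 with an array left out.

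The replicate numbers do not pair the mice: 6 of 25 same-numbered pairs correlated above 0.1 in their deviations from the group means (−0.313 to 0.254). The replicate block gave 2, 3, 1, 5 and 1, and 3 in both HFD MTX50 vs LFD and HFD vs LFD MTX50. The median difference of all genes in treated against untreated lean mice went from 0.105 to about 0 with quantile normalization, and the share of calls that were higher from 62.7 to 45.3% there and from 63.4 to 47.4% in HFD vs LFD (44.8% in both under scaling to the median, and 50.2% in HFD vs LFD under normexp). Over all genes, slide as a random block cut the calls from 5555 to 383 in HFD vs LFD, 5503 to 340 in LFD MTX50 vs LFD, 3158 to 18 in HFD MTX50 vs LFD MTX50 and 5243 to 1249 for the difference between effects. In HFD MTX50 vs LFD it cut them from 1343 to 3, and the share of higher calls there was 55.6% against 39.7% under quantile normalization. The cause was not tested. The uncalled HFD vs LFD differences of Fbp1 and Pcx ran from −0.22 to 0.10 and −0.19 to 0.16 over these settings.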
